A study of Homo sapiens with 74 samples.

Results

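The genes described here are 8 regulators of G protein signalling (RGS2, RGS3, RGS10, RGS12, RGS14, RGS16, RGS18 and RGS19), out of 28131 genes listed in 2 tables of RNA-seq counts. They were chosen by the fall of RGS18 counts after DOT1L knockdown in HEL cells, so their HEL knockdown values are a description and were not tested. K562 and HEL are established human leukaemia cell lines with erythroid and megakaryocytic features. DOT1L is the histone H3 lysine 79 methyltransferase, and ENL (gene symbol MLLT1) is an acetyl-lysine reader found in complexes with it. K562 was represented by wild-type cells (control), DOT1L-/- cells (DOT1L KO) and ENL-/- cells (ENL KO). HEL was represented by control cells and cells with DOT1L knockdown (DOT1L KD). Drug treatment was not named for any of the 5 groups, and the labels do not state whether a knockout line is 1 clone or which agent made the knockdown. After identical columns were merged, the groups held 2, 3, 3, 2 and 2 libraries in that order. The labels do not say whether replicates came from separate cultures, so p-values measure only the spread between these libraries, which may be technical. Between libraries of a group, chi-square per degree of freedom was 1.25 and 1.37 in HEL and 3.44 to 7.82 in K562. Counting error alone gives about 1, so HEL replicates differed by little more than that, and p-values of the 2 lines are not comparable.

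An RGS protein speeds the hydrolysis of GTP by the alpha subunit of a heterotrimeric G protein, and so shortens the signal that a G protein-coupled receptor starts. RGS2, RGS3, RGS16 and RGS18 belong to the R4 subfamily, most of whose members are little more than the RGS domain. RGS10, RGS12 and RGS14 belong to the R12 subfamily and act mainly on inhibitory alpha subunits, and RGS19 belongs to the RZ subfamily. RGS18 is known as the RGS protein of megakaryocytes and platelets, where it restrains activation by agonists such as thrombin.

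RGS18 lies on chromosome 1 from 192158462 to 192185815 on the plus strand (GRCh38, from the tables). RGS2 lies on the same strand at 192809039 to 192812277, with its start 0.65 Mb from that of RGS18. RGS16, on the minus strand at 182598623 to 182604413, starts 9.55 Mb from RGS18. The other members lie on other chromosomes: RGS3 on chromosome 9 (113444729 to 113597743), RGS10 on 10 (119499818 to 119542719), RGS12 on 4 (3314147 to 3439913), RGS14 on 5 (177357843 to 177372598) and RGS19 on 20 (64073181 to 64079971). The exons of no member overlapped those of another gene in the tables. The 250 bases before the RefSeq start (GRCh38.p14) are shown for RGS18 and the other 2 members on its chromosome, each of which has 1 RefSeq start in the table used. All 3 were higher in DOT1L KO and lower in DOT1L KD than in their controls. RGS3 on chromosome 9 shared that pattern, but it has 5 RefSeq starts and its windows are not printed. Each is printed 5′ to 3′ on the strand of its gene, from chr1:192158212-192158461, chr1:182604390-182604639 and chr1:192808789-192809038.
RGS18: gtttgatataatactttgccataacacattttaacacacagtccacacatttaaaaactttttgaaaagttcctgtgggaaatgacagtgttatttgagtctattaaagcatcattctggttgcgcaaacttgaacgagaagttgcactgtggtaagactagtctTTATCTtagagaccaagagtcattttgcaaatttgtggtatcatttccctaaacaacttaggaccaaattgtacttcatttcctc
RGS16: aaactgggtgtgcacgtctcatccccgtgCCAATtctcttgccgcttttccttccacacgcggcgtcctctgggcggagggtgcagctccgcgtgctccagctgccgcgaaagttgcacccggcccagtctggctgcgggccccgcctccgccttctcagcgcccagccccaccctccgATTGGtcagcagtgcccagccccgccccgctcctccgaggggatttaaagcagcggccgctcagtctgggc
RGS2: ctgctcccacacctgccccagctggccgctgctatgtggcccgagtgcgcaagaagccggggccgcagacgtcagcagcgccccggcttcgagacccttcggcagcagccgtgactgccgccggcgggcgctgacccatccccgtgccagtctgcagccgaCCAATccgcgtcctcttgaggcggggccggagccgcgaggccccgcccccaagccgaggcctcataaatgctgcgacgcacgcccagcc

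Capitals mark matches to the motifs searched on both strands, which belong to 4 kinds. A GATA match is AGATAA or TGATAA or AGATAG or TGATAG. An ETS match is AGGAAG or CGGAAG. The TATA motif is TATAAA, and the CCAAT box is spelled by its name. None of the motifs contains another. The RGS18 window held 1 match, AGATAA read on the minus strand, 85 to 80 bases before the start. The RGS16 window held 2 CCAAT boxes, at 221 to 217 and, on the minus strand, 71 to 67 bases before the start. The RGS2 window held 1 CCAAT box, 89 to 85 bases before the start. Of 35116 RefSeq windows of this length, 22.3% held the GATA motif and 32.0% the CCAAT box. GC content was 34.8% for RGS18, 68.4% for RGS16 and 72.8% for RGS2, against a median of 58% over all windows. A match describes the letters only, and binding was not measured here.

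Total counts were 15404944 to 29236703 fragments per K562 library and 12151495 to 12811688 reads per HEL library. K562 control columns 2 and 3 did not differ in any gene and entered as 1 library. The targeted genes kept RNA. DOT1L was at 263 ± 9.84 CPM (SD, n = 2) in K562 controls and 182 ± 5.15 CPM (n = 3) in DOT1L KO. It was at 92.4 ± 7.12 CPM in HEL controls and 29.6 ± 0.641 CPM in DOT1L KD (n = 2 each). MLLT1 was at 216 ± 3.56 CPM in K562 controls (n = 2) and 154 ± 1.92 CPM in ENL KO (n = 3). CPM is the count scaled to a common library size, here with TMM factors. In such bulk RNA, fewer cells of a type and less RNA per cell cannot be told apart.

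**Figure D1:**
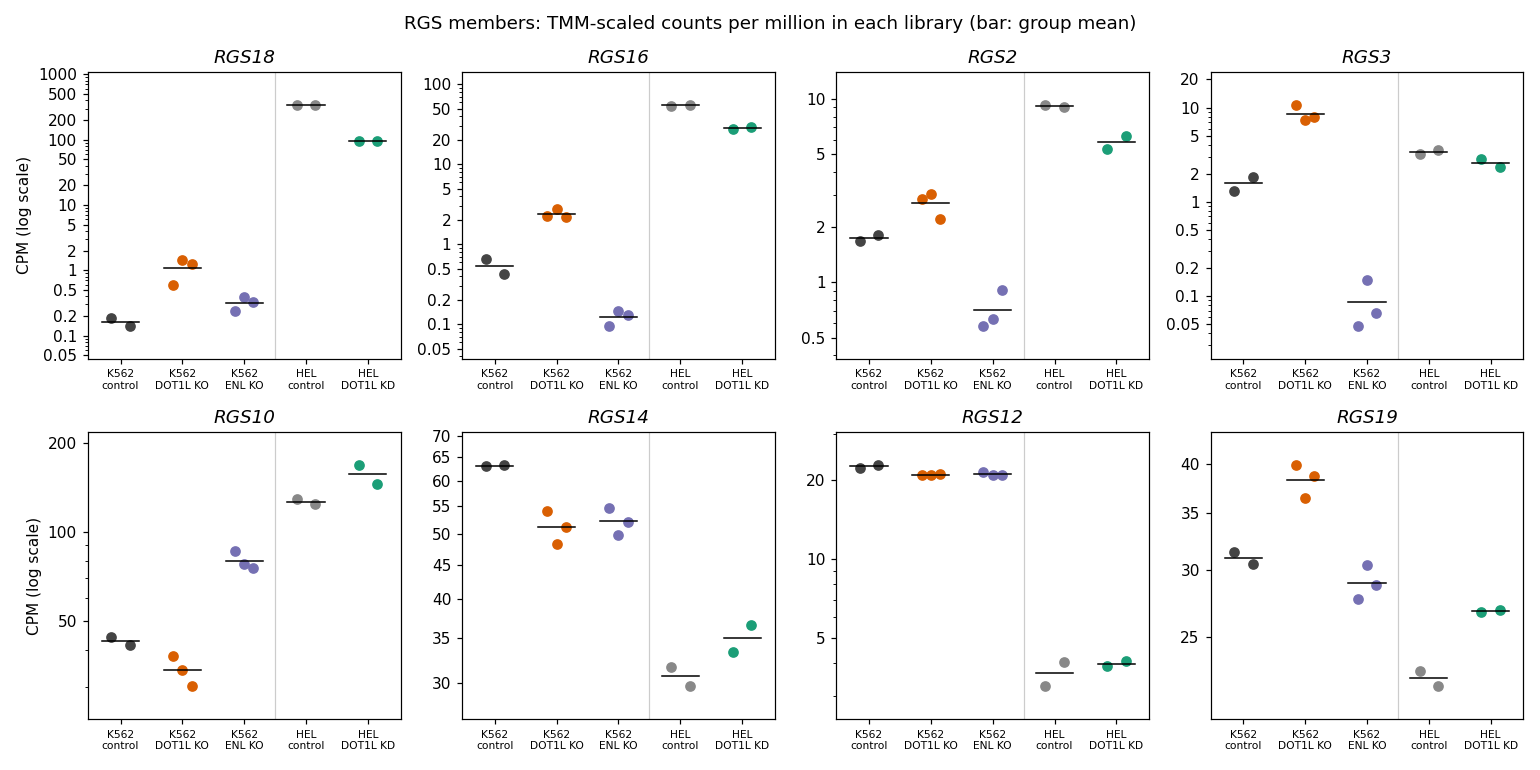
TMM-scaled level (CPM, log axis) of each RGS member in each library, by group; the horizontal bar is the group mean, and the grey line separates K562 from HEL. RGS18 stands at 94.8 to 340 CPM in HEL and at 0.142 to 1.42 CPM in K562. RGS14, RGS12 and, by a small margin, RGS19 are higher in every K562 library than in every HEL library. K562 values are of fragments and HEL values of reads, counted separately, and the lines were not tested against each other.

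RGS18 was the most abundant member per kilobase in HEL controls and the least abundant in K562 controls. HEL controls held 4252 and 4229 reads, or 340 and 336 CPM, and the DOT1L KD libraries 1192 and 1184 reads, or 94.8 and 96.3 CPM. Both KD libraries lay below both controls, at 0.283 times their level (log2 fold change −1.82, SE 0.04), the comparison by which the genes were picked. K562 libraries held few RGS18 fragments: 4 and 3 in the controls, 13, 42 and 26 in DOT1L KO, and 5, 8 and 5 in ENL KO. Every DOT1L KO library (0.591, 1.42 and 1.23 CPM) was above both controls (0.186 and 0.142 CPM).

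In K562 RGS18 rose in DOT1L KO by 2.70 on the log2 scale (SE 0.53, adjusted p = 7.55e-04, edgeR quasi-likelihood test). The ratio of the summed counts, scaled for depth, was 6.78, with an exact 95% interval of 3.15 to 17.4 that covers counting error only. Its ENL KO libraries (0.242, 0.389 and 0.326 CPM) also lay above both controls, but the log2 difference of 0.93 did not pass the test (95% interval −0.55 to 2.41, adjusted p = 0.307). With 7 control fragments in all, a difference of that size was not resolved at this depth. RGS18 and RGS16 passed the filter on low counts in K562 only through the DOT1L KO group, so that they were tested at all already required a high level there.

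RGS16, an R4 member that acts on inhibitory and Gq alpha subunits, had the same order of groups within each line as RGS2 and RGS3. It stood at 53.8 and 55.4 CPM in HEL controls and at 28.1 and 29.4 CPM in DOT1L KD. Fragments of RGS16 in K562 numbered 14 and 9 in the controls, 50, 81 and 47 in DOT1L KO, and 2, 3 and 2 in ENL KO. The 3 K562 groups did not overlap, with DOT1L KO highest at 2.22 to 2.74 CPM and ENL KO lowest at 0.0966 to 0.146 CPM.

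In K562 RGS16 rose by 2.16 in DOT1L KO (log2, SE 0.28, adjusted p = 2.73e-05) and fell by 2.07 in ENL KO (SE 0.51, adjusted p = 0.00509). Its p-values are those of a gene that was tested only because its DOT1L KO level passed the filter. The summed counts gave a ratio of 4.54 (2.93 to 7.34) for DOT1L KO over control, and of 0.229 (0.0831 to 0.552) for ENL KO over control. The call in ENL KO was lost without K562 control 1 (log2 fold change −1.74, adjusted p = 0.0646). In HEL the log2 difference of RGS16 was −0.92 (SE 0.07).

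RGS2, an R4 member that prefers Gq alpha subunits, was measured at a low level in every group. Its K562 controls stood at 1.67 and 1.80 CPM, DOT1L KO at 2.86, 3.04 and 2.22 CPM, and ENL KO at 0.580, 0.633 and 0.912 CPM. RGS2 fell by 1.32 in ENL KO (log2, SE 0.29, adjusted p = 0.00239). It rose by 0.65 in DOT1L KO (SE 0.22, adjusted p = 0.0263), but this call was lost with DESeq2 (adjusted p = 0.112). It was also lost without control 1 (0.133), control 2 (0.0840), DOT1L KO 1 (0.0618) or DOT1L KO 2 (0.0882), these values being adjusted p from edgeR. In HEL, RGS2 was at 9.27 and 9.05 CPM in controls and at 5.33 and 6.26 CPM in DOT1L KD, a log2 difference of −0.66 (SE 0.16).

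RGS3, an R4 member with several long isoforms, showed the widest span among the members within K562. Fragments numbered 28 and 39 in the controls, 236, 218 and 167 in DOT1L KO, and 1, 3 and 1 in ENL KO. The groups were far apart, at 1.30 and 1.84 CPM in controls, 10.7, 7.36 and 7.90 CPM in DOT1L KO, and 0.0483, 0.146 and 0.0651 CPM in ENL KO. RGS3 rose by 2.45 in DOT1L KO (log2, SE 0.23, adjusted p = 1.01e-06) and fell by 4.07 in ENL KO (SE 0.52, adjusted p = 3.27e-05). Since no ENL KO library held more than 3 fragments, the size of that fall rests on few counts: control over ENL KO gave a ratio of 17.8 with a counting interval of 7.25 to 56.5. In HEL, RGS3 was at 3.20 and 3.57 CPM in controls and at 2.86 and 2.36 CPM in DOT1L KD, a log2 difference of −0.37 (SE 0.25).

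RGS10, a small R12 member known for its high level in leukocytes and platelets, was the most abundant member per kilobase in all K562 groups and in DOT1L KD of HEL. It stood at 44.1 and 41.4 CPM in K562 controls, at 38.2, 34.1 and 30.2 CPM in DOT1L KO and at 86.0, 78.2 and 75.7 CPM in ENL KO. The groups did not overlap, and RGS10 was the one member that passed the test as higher in ENL KO (log2 fold change 0.90, SE 0.09, adjusted p = 4.33e-06). It fell by 0.32 in DOT1L KO (SE 0.09, adjusted p = 0.0104), a call lost without control 1 (log2 fold change −0.28, adjusted p = 0.0885). In HEL the controls stood at 129 and 124 CPM and DOT1L KD at 168 and 145 CPM, a log2 difference of 0.31 (SE 0.05).

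RGS14 and RGS12 are the large R12 members, which carry Ras-binding domains and a GoLoco motif that holds inhibitory alpha subunits in their GDP-bound state. RGS14 was at 63.1 and 63.3 CPM in K562 controls, at 54.1, 48.3 and 51.2 CPM in DOT1L KO and at 54.7, 49.9 and 52.1 CPM in ENL KO. It fell in both knockouts, by 0.30 in DOT1L KO (log2, SE 0.07, adjusted p = 0.00236) and by 0.27 in ENL KO (SE 0.07, adjusted p = 0.00650). These comparisons share their control libraries. In HEL, RGS14 was at 31.7 and 29.7 CPM in controls and at 33.4 and 36.6 CPM in DOT1L KD.

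RGS12 held the narrowest range in K562, at 22.3 and 22.8 CPM in controls, 20.9 to 21.1 CPM in DOT1L KO and 21.0 to 21.4 CPM in ENL KO. Neither difference passed the test: the log2 fold change was −0.10 in DOT1L KO (95% interval −0.27 to 0.06, adjusted p = 0.284) and −0.09 in ENL KO (−0.26 to 0.08, adjusted p = 0.377). In HEL it was at 3.28 and 4.05 CPM in controls and at 3.90 and 4.07 CPM in DOT1L KD, and the groups overlapped.

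RGS19, the RZ member, also known as GAIP for its binding to an inhibitory alpha subunit, was at 31.5 and 30.5 CPM in K562 controls. It was at 39.9, 36.5 and 38.7 CPM in DOT1L KO and at 27.7, 30.4 and 28.8 CPM in ENL KO. RGS19 rose by 0.31 in DOT1L KO (log2, SE 0.08, adjusted p = 0.00439). In ENL KO its log2 difference of −0.10 did not pass the test (95% interval −0.27 to 0.07, adjusted p = 0.354). In HEL it was at 22.8 and 21.9 CPM in controls and at 26.8 and 26.9 CPM in DOT1L KD.

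**Figure D2:**
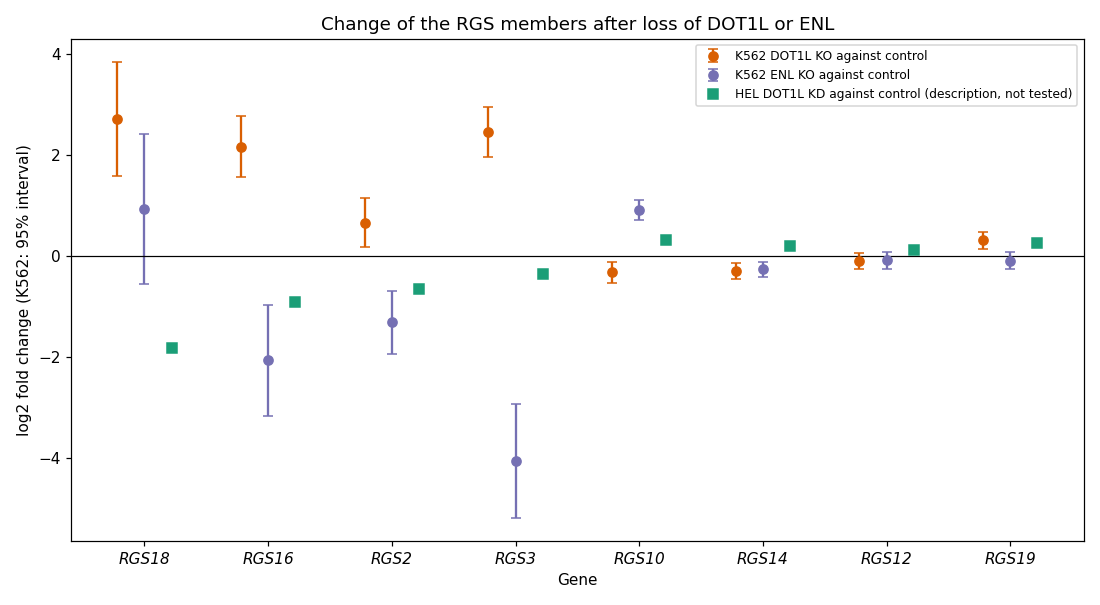
Log2 fold change of each RGS member against the control of its line, with 95% intervals for the K562 comparisons; HEL squares carry no interval and are a description. RGS18, RGS16, RGS2 and RGS3 lie above 0 in DOT1L KO and below 0 in DOT1L KD, while RGS10 and RGS14 lie on the opposite sides.

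Counted over the members, 7 of 8 passed the test in DOT1L KO, 5 higher and 2 lower, where 51.1% of all 14301 genes tested passed, 26.9% higher and 24.2% lower. In ENL KO 5 of 8 passed, 1 higher and 4 lower, against 41.0% of all genes (18.8% higher, 22.2% lower). The difference between DOT1L KO and ENL KO passed for 6 of 8 members, 5 higher in DOT1L KO and 1 lower, against 60.2% of all genes (31.8% higher, 28.3% lower). With so many genes passing, and with RGS16 and RGS18 tested because of their DOT1L KO level, these counts do not set the members apart. In HEL 3 members were higher and 4 lower in DOT1L KD with no overlap of the groups, where 75.9% of 12635 genes did not overlap (38.7% higher, 37.2% lower), and nothing is read from that count.

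DOT1L KO and ENL KO were also compared directly. RGS3 was higher in DOT1L KO than in ENL KO by 6.52 (log2, SE 0.35, adjusted p = 1.85e-09), RGS16 by 4.23 (SE 0.34, adjusted p = 1.54e-07), RGS2 by 1.97 (SE 0.24, adjusted p = 9.57e-06) and RGS18 by 1.77 (SE 0.41, adjusted p = 0.00202). RGS19 was higher in DOT1L KO by 0.40 (SE 0.07, adjusted p = 1.95e-04). RGS10 was lower in DOT1L KO by 1.23 (log2 fold change −1.23, SE 0.08, adjusted p = 2.24e-08). RGS16 and RGS18 entered this test only through their DOT1L KO level, so their p-values are conditional on that level. RGS12 (95% interval −0.16 to 0.14) and RGS14 (−0.17 to 0.11) did not pass. The labels of control and DOT1L KO libraries name a sequencing lane and those of ENL KO name none, so a batch of the ENL KO libraries cannot be told apart from the knockout.

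Levels between genes were compared per kilobase of exonic length (RPKM). In K562 controls the order of mean RPKM was RGS10 (43.1), RGS14 (26.2), RGS19 (18.3), RGS12 (3.21), RGS2 (1.29), RGS16 (0.221), RGS3 (0.209) and RGS18 (0.0764). RGS16 and RGS3 overlapped in that order. In DOT1L KO RGS19 (22.7) was above RGS14 (21.3) within each library, though their ranges over the libraries overlapped. RGS3 (1.15) and RGS16 (0.991) also overlapped there, and their order differed between libraries. ENL KO left RGS3 lowest (0.0115), below RGS16 (0.0511) and RGS18 (0.149).

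The HEL order was different. In controls mean RPKM was 157 for RGS18, 127 for RGS10, 22.4 for RGS16, 13.2 for RGS19, 12.7 for RGS14, 6.78 for RGS2, 0.521 for RGS12 and 0.450 for RGS3. The range of RGS19 overlapped that of RGS14, and the range of RGS12 that of RGS3. Within each control library, RGS19 was above RGS14 and RGS12 above RGS3. In DOT1L KD RGS10 (158) stood first and RGS18 (44.5) next, followed by RGS19 (15.9), RGS14 (14.5) and RGS16 (11.8). The lines come from separately counted tables, of fragments and of reads, and were not tested against each other.

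Of 12 other RGS genes, which include the R7 subfamily (RGS6, RGS7, RGS9 and RGS11), 6 were tested in HEL. RGS9 fell in DOT1L KD from 46.9 ± 0.269 to 14.0 ± 1.30 CPM (SD, n = 2 each; log2 fold change −1.75, SE 0.09, adjusted p = 1.11e-23). RGS9 counts were 589 and 590 in controls and 164 and 183 in DOT1L KD, with no overlap. RGS6 fell from 46.1 ± 0.0959 to 30.6 ± 1.34 CPM (log2 fold change −0.59, adjusted p = 7.06e-10). RGS20 passed as higher (log2 fold change 0.71, adjusted p = 0.00565), a call lost with DESeq2 (adjusted p = 0.137), without control 1 (0.0651) and without DOT1L KD 1 (0.151). RGS1 (log2 fold change −0.58, adjusted p = 0.115), RGS5 (0.20, 0.500) and RGS17 (0.03, 0.893) did not pass with all libraries. Without control 1 RGS1 passed (log2 fold change −1.02, adjusted p = 0.0112), and without control 2 RGS5 passed (0.71, 0.0492). The share of all genes tested that passed in HEL was 55.0%, with 27.0% higher and 28.0% lower.

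GNB5, the Gβ5 subunit that R7 proteins need for stability, rose in DOT1L KD from 30.7 ± 2.00 to 40.2 ± 2.43 CPM (log2 fold change 0.39, adjusted p = 2.29e-05). RGS9BP, which anchors RGS9 to membranes, fell from 4.14 ± 1.14 to 1.64 ± 0.599 CPM (−1.32, adjusted p = 5.63e-05). In K562 RGS5 and RGS20 were the other RGS genes tested, and neither passed in any comparison. GNB5 rose in DOT1L KO from 2.36 ± 0.535 (n = 2) to 13.6 ± 0.999 CPM (n = 3; log2 fold change 2.53, adjusted p = 1.69e-08) and fell to 0.659 ± 0.0679 CPM in ENL KO (−1.85, adjusted p = 4.88e-05). GNB5 thus had DOT1L KO highest and ENL KO lowest, the order seen for RGS3, RGS16 and RGS2. That order is not particular to these genes. GNG12, a gamma subunit, was at 15.8 CPM in DOT1L KO, 4.06 in controls and 1.04 in ENL KO, and LYZ at 310, 34.0 and 19.8 CPM. GNB4, a beta subunit, did not share it, and the share of all genes with this order was not counted.

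Around RGS18 the tables list a run of RGS genes (RGS21, RGS1, RGS13 and RGS2) and then unrelated genes. RGS1, with its start 417 kb from that of RGS18, and RGS2 were the RGS genes of this run with a mean of at least 1 CPM in any group. RO60 and UCHL5, at 901 and 902 kb, GLRX2 at 948 kb and CDC73 at 963 kb were above that level as well. In DOT1L KD RO60, UCHL5, GLRX2 and CDC73 passed as lower, as 28.0% of all genes tested did, with log2 fold changes of −0.82 for RO60 (adjusted p = 2.12e-17), −0.71 for UCHL5 (8.89e-20), −0.43 for GLRX2 (0.00338) and −0.18 for CDC73 (8.25e-04).

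In DOT1L KO, where RGS18 rose and 24.2% of all genes passed as lower, 3 of these 4 genes fell: UCHL5 by 0.41 (log2, adjusted p = 1.41e-04), RO60 by 0.34 (adjusted p = 0.0141) and GLRX2 by 0.26 (adjusted p = 0.0375). CDC73 did not pass (log2 fold change 0.02, adjusted p = 0.903). In ENL KO none of the 4 passed in edgeR's test, with adjusted p from 0.328 to 0.977. RO60 and UCHL5 start close together, and the use of strand in counting is not stated, so their values are uncertain.

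**Figure D3:**
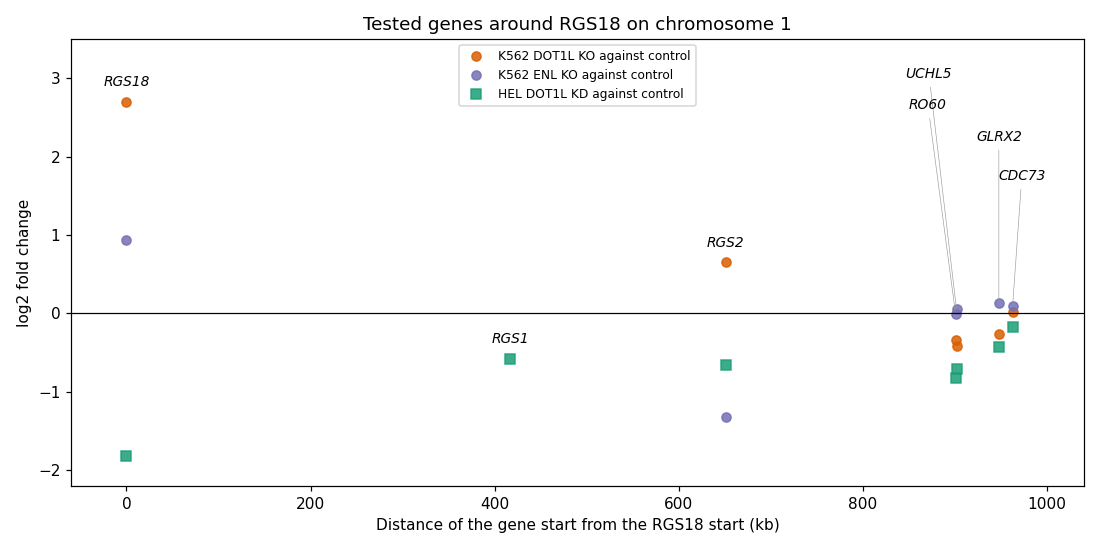
Log2 fold change of the tested genes within 1 Mb of RGS18, by distance of the gene start from the RGS18 start in kb, for the 3 comparisons with a control. RGS18 and RGS2 lie above 0 in DOT1L KO, while RO60, UCHL5 and GLRX2 lie below 0 in DOT1L KO and DOT1L KD.

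By Pearson's r of log2 CPM over the 12 libraries, among 11842 genes, the 5 genes most like RGS18 were ZNF326 (r = 0.998), PPM1A (0.998), INTS6 (0.996), HEATR6 (0.996) and SERINC1 (0.996). All 5 were highest in HEL controls and next in DOT1L KD, but over a narrower range than RGS18: PPM1A was at 35.4 CPM in K562 controls and at 116 CPM in HEL controls, against 0.164 and 338 CPM for RGS18. In DOT1L KD the log2 fold change was −0.46 for HEATR6 and −0.29 for PPM1A, against −1.82 for RGS18. The 12 libraries fall into 2 lines counted in different ways, which sets much of r.

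Of 122 other genes of G protein signalling, 77 passed the filter on low counts in K562 and 82 in HEL. In DOT1L KO 29 rose and 17 fell, 59.7% of those tested beside 51.1% of all genes, with a median log2 fold change of 0.10 against 0.01 over all genes. In ENL KO 14 rose and 24 fell, 49.4% beside 41.0%. In DOT1L KD 26 rose and 30 fell, 68.3% beside 55.0%, with a median of −0.07 against 0.01. Of all genes tested, 26.9% rose and 24.2% fell in DOT1L KO, 18.8% and 22.2% in ENL KO, and 27.0% and 28.0% in DOT1L KD. The lists were not tested against other genes and are described by their members.

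Among receptors in DOT1L KO, 5 of 19 rose and 8 fell, where 26.9% of all genes rose and 24.2% fell. SUCNR1, the succinate receptor, rose from 0.258 ± 0.0301 to 16.5 ± 2.68 CPM (log2 fold change 5.97, adjusted p = 1.62e-09). ADGRG1, an adhesion receptor that couples to G12 and G13, rose from 0.445 ± 0.0278 to 11.1 ± 0.749 CPM (4.63, adjusted p = 7.78e-10). In controls SUCNR1 and ADGRG1 lay under the cut of the filter on low counts (0.470 CPM). Both were tested only through their knockout levels, and the sizes of their rises rest on few control fragments. GPR183, an oxysterol receptor, fell from 5.37 ± 0.363 to 0.533 ± 0.198 CPM. Of 11 alpha subunits 4 rose and 2 fell. GNAL, a stimulatory alpha subunit, rose by 3.17 on the log2 scale, to 7.81 ± 1.25 CPM. GNAI3 rose by 0.36 and GNA11 by 0.38. Of 9 beta and gamma subunits 4 rose and 2 fell, among them GNG12, which rose by 1.97, and GNB4, which fell by 0.31.

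Of 19 effectors in DOT1L KO, 10 rose and 4 fell, where 26.9% of all genes rose and 24.2% fell. ADCY6, an adenylyl cyclase, rose from 1.22 ± 0.118 to 49.9 ± 3.11 CPM (log2 fold change 5.35, adjusted p = 1.81e-11), ADCY9 rose by 2.53, and ITPR2, an inositol trisphosphate receptor, rose by 2.43. Among 12 other regulators 3 rose and 1 fell. GRK3, a receptor kinase, was the one that fell, from 36.1 ± 0.694 to 25.2 ± 1.40 CPM.

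In ENL KO the largest change among the other regulators named was that of GRK3, which fell from 36.1 ± 0.694 to 2.80 ± 0.293 CPM (log2 fold change −3.70, adjusted p = 2.86e-11). GRK5, a kinase of the same family, rose from 2.00 ± 0.455 to 7.70 ± 0.139 CPM (1.94, adjusted p = 1.99e-06). Of the regulators 1 rose and 5 fell, GPSM1, a GoLoco protein, among the latter (−0.82, adjusted p = 1.25e-05). Of 19 receptors 8 rose and 5 fell, and PTGER3, a prostaglandin E2 receptor, fell from 50.9 ± 0.448 to 21.8 ± 1.50 CPM. Of 19 effectors 3 rose and 7 fell, including PIK3CG, the catalytic subunit of the PI3 kinase driven by beta and gamma subunits, which fell from 115 ± 7.69 to 59.7 ± 0.881 CPM. Of 11 alpha subunits 1 rose and 3 fell, and of 9 beta and gamma subunits 1 rose and 3 fell. Beside these counts, 18.8% of all genes rose and 22.2% fell in ENL KO.

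In DOT1L KD the named alpha subunits moved in both directions. GNAQ fell from 225 ± 7.55 to 181 ± 3.09 CPM (log2 fold change −0.31, adjusted p = 4.70e-10), GNA13 fell from 216 ± 3.40 to 151 ± 2.35 CPM (−0.52), and GNA11 rose from 5.17 ± 0.990 to 11.2 ± 0.277 CPM (1.11). Of 10 alpha subunits tested 3 rose and 3 fell, where 27.0% of all genes rose and 28.0% fell. Of 10 beta and gamma subunits 2 rose and 4 fell, among them GNG8 (−0.77) and GNB4 (−0.51).

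Of 22 receptors in DOT1L KD 5 rose and 9 fell: ADGRG1 rose from 29.5 ± 0.430 to 79.6 ± 1.35 CPM (1.43, adjusted p = 4.36e-26), and S1PR1, a sphingosine 1-phosphate receptor, fell from 5.41 ± 0.876 to 1.37 ± 0.0217 CPM (−1.98, adjusted p = 5.17e-09). Of 19 effectors 11 rose and 5 fell: PIK3CB, a PI3 kinase catalytic subunit of platelet activation, fell from 445 ± 9.98 to 227 ± 0.489 CPM (−0.97), and PREX1, a Rac exchange factor, rose from 78.6 ± 6.21 to 144 ± 1.86 CPM (0.88). Of 10 other regulators 2 rose and 4 fell, with GRK2 and GRK3 each at −0.44. Beside these counts, 27.0% of all genes rose and 28.0% fell in DOT1L KD.

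**Figure D4:**
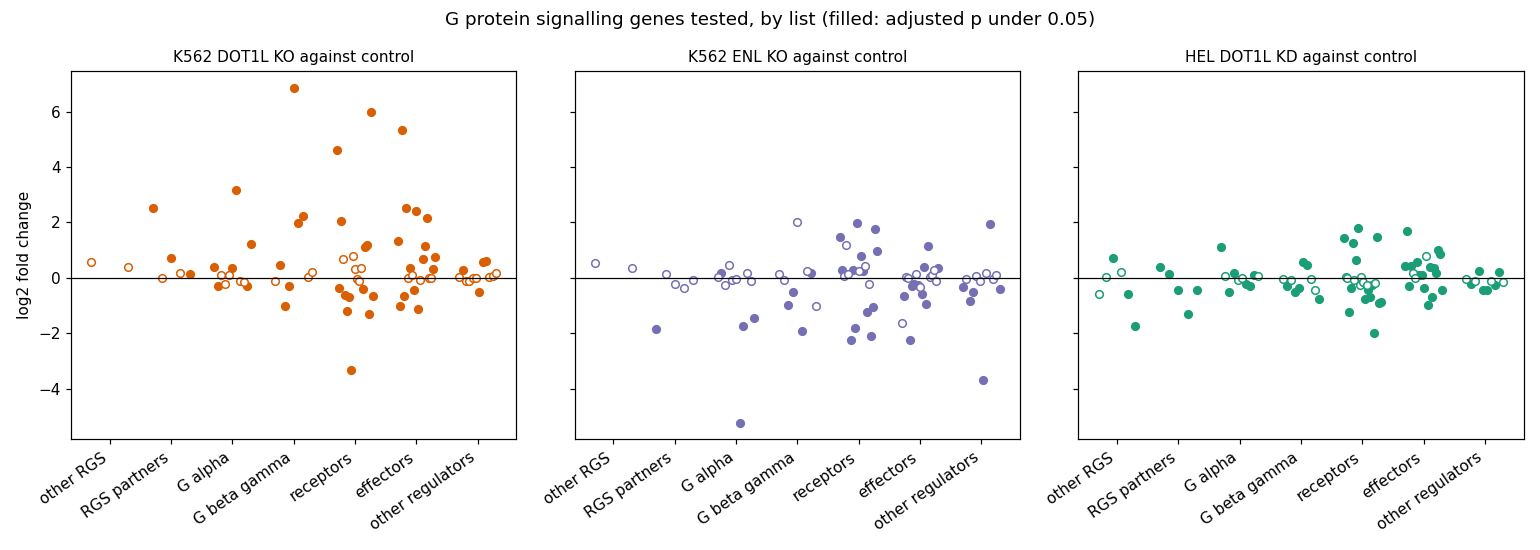
Log2 fold change of the tested genes of G protein signalling other than the 8 members, by list, for the 3 comparisons with a control; filled points passed an adjusted p of 0.05 and open points did not. In DOT1L KO 29 of 77 genes rose and 17 fell, in ENL KO 14 rose and 24 fell, and in DOT1L KD 26 of 82 rose and 30 fell. The shares of all genes that rose and fell were 26.9% and 24.2%, 18.8% and 22.2%, and 27.0% and 28.0% in that order.

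Marker genes of blood cell types also differed between the groups, in directions that matched some members and not others. Megakaryocytic markers summed to 2776 to 2823 CPM in HEL controls and to 2148 to 2154 CPM in DOT1L KD, and 7 of 9 tested fell while 2 rose. Of all genes tested in HEL, 28.0% fell and 27.0% rose. PF4 fell by 1.85, PPBP by 1.94 and SELP by 1.11 on the log2 scale, and GP1BB and GP6 were at 0. The smallest of the falls that passed was that of ITGA2B (log2 fold change −0.10). In K562 these markers summed to 7.76 to 10.5 CPM in controls, 34.1 to 36.0 in DOT1L KO and 29.9 to 37.4 in ENL KO, with GP9, PF4 and PPBP among the 9, 8 and 9 of 12 markers that held at most 3 counts in any library of these groups. Of 3 tested, ITGA2B and ITGB3 rose in both knockouts, where 26.9% of all genes rose in DOT1L KO and 18.8% in ENL KO. The part of these markers in the RGS18 values was not tested.

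Of 10 erythroid markers 9 rose and 1 fell in DOT1L KO, 7 rose and 1 fell in ENL KO, and 9 rose in DOT1L KD. Of all genes tested, 26.9% rose and 24.2% fell in DOT1L KO, and 18.8% and 22.2% in ENL KO. In DOT1L KD 27.0% of all genes rose and 28.0% fell. The erythroid rises in DOT1L KD ran from a log2 fold change of 0.13 for KLF1 and ALAS2 to 3.43 for SLC4A1. SLC4A1 was at 0.517 ± 0.0540 CPM in HEL controls, under the cut of the filter on low counts (0.798 CPM). It was tested only through its DOT1L KD level (5.67 ± 0.0804 CPM), so its call is conditional on that level. Their sum was 6600 to 7158 CPM in K562 controls, 10466 to 11060 in DOT1L KO, 8692 to 8900 in ENL KO, 6273 to 6392 in HEL controls and 8792 to 9452 in DOT1L KD. Myeloid markers summed to 37.3 to 39.8 CPM in K562 controls, 301 to 331 in DOT1L KO and 20.1 to 21.6 in ENL KO, most of it LYZ, which rose from 34.0 ± 1.95 to 310 ± 17.1 CPM in DOT1L KO. Of 3 myeloid markers tested 2 rose in DOT1L KO and 2 fell in ENL KO, the directions seen for RGS3 and RGS16. Lymphoid markers summed to 81.4 to 81.5 CPM in K562 controls, 21.5 to 26.4 in DOT1L KO and 117 to 128 in ENL KO, with MS4A1 and CD2 at most 3 counts in any library. In HEL the myeloid and lymphoid sums stayed within 11.4 to 59.1 CPM in all libraries. The part of these markers in the member values was not tested.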

How the data were processed

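Polyadenylated RNA was sequenced in strand-specific libraries, per the labels' protocols. Of 74 samples, 13 are RNA-seq libraries and were used, and the other 61 were left out because they measure chromatin or nascent RNA. The authors deposited whole-number counts per gene, of fragments for K562 and of reads for HEL, per the file headers. The submitters' processing notes name fastp 0.13.1, HISAT2 2.1.0, Bowtie2 2.3.4.1, featureCounts 1.6.1, hg38 and hg19 without their roles. The use of strand in counting is not given in the sources used here.

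Groups came from the labels. K562 control columns 2 and 3 matched gene for gene and entered once, which left 8 K562 and 4 HEL libraries. Genes were kept with filterByExpr (minimum count 10, minimum total count 15), scaled by TMM and tested with edgeR 4.0.16 (glmQLFit, glmQLFTest, R 4.3.3), with 1 fit per line. Benjamini-Hochberg adjustment ran over the 14301 genes tested in K562 or the 12635 in HEL, with a threshold of 0.05. Standard errors and 95% intervals were derived from the F statistic. The scripts were tested on simulated data. Count ratios carry exact 95% binomial intervals. A count of 0 allows up to 3 counts, worth 0.101 to 0.195 CPM in K562 and 0.238 to 0.244 CPM in HEL. The binomial intervals and this limit cover counting error only, whereas the intervals from the F statistic also cover the spread between libraries. No molecular identifiers were used.

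The members and lists were chosen with earlier results of these data known. Named were all members and targeted genes, all tested other RGS genes, and per list and comparison at most 3 passing genes with the largest change, a mean of at least 5 CPM and no overlap. Genes within 1 Mb of RGS18 with a mean of at least 1 CPM and the 5 genes most like RGS18 (Pearson r of log2 CPM, prior count 2) were named as well. RGS9BP, and GNB5 in ENL KO, were named after their values were seen. Promoter motifs were also chosen with the data known. Alternatives were other scalings, no filter, DESeq2 1.42.0, a replicate block, only the groups compared, and leaving out each library.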

Additional observations from a re-analysis of the deposited data

Results flagged for a closer look

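For 6 of the 8 members, every DOT1L KO library of K562 moved one way from the controls and every DOT1L KD library of HEL the opposite way. Of 11644 genes tested in both lines, 23.0% showed such opposite moves. The members' count is a description and not support: the HEL fall of RGS18 chose the genes, and RGS18 and RGS16 passed the K562 filter on low counts only through their DOT1L KO level. The difference between the lines was not tested, because the genes were picked by the HEL comparison. The line also goes together with knockout against knockdown and with fragment against read counting. RGS18 had a log2 fold change of 2.70 in DOT1L KO and of −1.82 in DOT1L KD, RGS16 of 2.16 and −0.92, RGS3 of 2.45 and −0.37, and RGS2 of 0.65 and −0.66. In the other order, RGS10 had −0.32 and 0.31, and RGS14 −0.30 and 0.19. RGS19 was higher in both lines, and RGS12 overlapped its HEL control. Among the opposite moves, the RGS3 change of −0.37 in HEL carried an SE of 0.25, so its direction was not resolved. The RGS2 rise in DOT1L KO did not pass with DESeq2 (adjusted p = 0.112).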

How the results depend on the processing

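With library-size scaling, chosen after seeing the data, the RGS18 change in HEL was −1.79, and with upper-quartile scaling −1.75, against −1.82. It ranged from −1.83 to −1.81 when 1 library was left out. In the same order of scalings, RGS12 between DOT1L KO and ENL KO turned to 0.04 and 0.03, and RGS14 to 0.02 and 0.01. With these scalings the median log2 fold change over all genes in that comparison shifted as well, by 0.05 and 0.04. Any other cause was not tested. Leaving out 1 library gave 5 to 7 members passing in DOT1L KO, 4 to 5 in ENL KO and 6 to 6 between the knockouts, and 37 to 43, 28 to 40 and 52 to 56 pathway genes in DOT1L KO, ENL KO and DOT1L KD. It turned the sign of changes that had not passed. Between DOT1L KO and ENL KO the range was −0.07 to 0.02 for RGS14, −0.16 to 0.20 for RGS5 and −0.14 to 0.25 for RGS20. In HEL it was −0.03 to 0.28 for RGS12, −1.02 to 0.04 for RGS1, −0.18 to 0.71 for RGS5 and −0.17 to 0.20 for RGS17. When ENL KO and control were fitted alone, RGS16 and RGS18 did not pass the filter on low counts. Over all genes in HEL, DESeq2 called 4373 where edgeR called 6951, and the share of calls that were higher was 49.1%, or 61.4% with upper-quartile scaling. Same-numbered libraries had correlations of deviations of 0.0531 to 0.22 in K562, against −0.158 to 0.0881 for differently numbered ones, and 0.000442 in HEL. Deviations were taken from group means, so same-numbered and differently numbered values are not independent of each other. The merged K562 control was numbered 2 but equals column 3 too, so its matching by number, also in the replicate block, was arbitrary. The main fit did not pair samples by number, and a shared batch of same-numbered K562 libraries was not tested. A replicate block changed the calls over all genes from 7305 to 8340 in DOT1L KO and from 5863 to 7021 in ENL KO. Between the knockouts they went from 8606 to 9605, and in HEL from 6951 to 6903. With that block 7 members passed in DOT1L KO, 5 in ENL KO and 6 between the knockouts. Pathway genes passing were 48 in DOT1L KO, 44 in ENL KO and 55 in DOT1L KD. RGS18 in HEL stayed at −1.82, and no call of a member changed. RGS16 and RGS18 in K562 rest on few fragments, which limits their precision.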
